A study of Mus musculus with 34 samples.

Results

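The integrated stress response and the unfolded protein response were described through 10 genes, *Atf4*, *Ddit3*, *Trib3*, *Asns*, *Chac1*, *Sesn2*, *Hspa5*, *Hsp90b1*, *Xbp1* and *Herpud1*, chosen by name from the 23509 genes counted in each of 34 mouse kidneys. All 10 were among the 15644 genes that passed the filter on low counts. Kidney mRNA was sequenced at postnatal day 28 in 3 groups of C57BL6 mice. The UNT group (n = 12) held untreated wild-type, non-transgenic mice. The PBS group (n = 11) and the RGLS4326 group (n = 11) held *Pkd2*-KO mice, whose genotype the labels spell Pdk2KO. In this model a Cre recombinase driven by the *Pkhd1* promoter deletes floxed *Pkd2* where that promoter is active, so other cells of the kidney keep the gene, and cysts form early. The study describes collecting duct cysts in it. Both groups received subcutaneous injections at P10, P11, P12 and P19, of PBS or of RGLS4326 at 20 mg per kg. RGLS4326 is a short, chemically modified oligonucleotide that binds the seed of the microRNA miR-17. UNT mice received no injections, so PBS vs UNT differs in both genotype and injection, while RGLS4326 vs PBS compares dosed mice of a single genotype.

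The integrated stress response starts with kinases that phosphorylate the translation factor eIF2alpha. This slows protein synthesis while favouring translation of *Atf4*, a transcription factor that switches on genes for amino acid supply and for stress signalling. The unfolded protein response is the reaction of the endoplasmic reticulum (ER) to misfolded protein. It runs through 3 sensors, PERK (which acts through eIF2alpha and ATF4), ATF6 and IRE1, and IRE1 activates XBP1 by splicing its mRNA. Both ATF6 and XBP1 raise ER chaperones. Of the genes described here, *Atf4*, *Ddit3*, *Trib3*, *Asns*, *Chac1* and *Sesn2* are called the ATF4 arm, and *Hspa5*, *Hsp90b1*, *Xbp1* and *Herpud1* the ER arm. Translation of *Atf4* and splicing of *Xbp1* are not read by counts per gene, so what follows concerns mRNA levels.

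Sequences ahead of some of these genes are shown as a description, and their link to the variation between mice described further on was not tested. The promoter windows are RefSeq sequence on GRCm38.p6, from 250 bases before the annotated start to 50 bases after it, and all 10 genes had an entry. They were searched on both strands for the ER stress response element (ERSE, CCAAT, any 9 bases, then CCACG), which the ATF6 pathway uses, and for the element TGATGNAA, which ATF4 with C/EBP partners can bind. No match of one motif overlapped a match of the other. An ERSE of this form was present ahead of *Hspa5* and *Hsp90b1*, and in 0.119% of 32851 mouse promoter windows (0.129% of those of tested genes). Other forms of ER stress element were not searched for, so the search does not tell whether *Herpud1* or another member holds one. The ATF4 element was present in *Asns*, *Chac1*, *Trib3* and *Herpud1*, and in 3.97% of all windows (2.38% of those of tested genes). In *Hspa5* the first letter of the ERSE lay 65 bases before the start. *Hsp90b1* held an ERSE on the gene's own strand 212 bases before the start and another on the opposite strand at 107 bases. The ATF4 element lay 23 bases before the start of *Asns* on its own strand, and on the opposite strand 193 bases before the start of *Chac1*, 112 bases before that of *Herpud1* and 15 bases after that of *Trib3*. Neither motif was found in the windows of *Atf4*, *Ddit3*, *Sesn2* and *Xbp1*, which says only that these letters are not there. Among the pairs that moved together between mice, *Hspa5* with *Hsp90b1* and *Trib3* with *Asns* share one of these motifs. *Hspa5* with *Xbp1* and *Atf4* with *Ddit3* moved together too and do not share one. The 250 bases before the start follow, 5′ to 3′ along the gene and with motif letters in capitals, and for *Trib3* a stretch of 30 bases after the start that holds its match.
Hspa5 (chr2:34771840-34772089, plus strand): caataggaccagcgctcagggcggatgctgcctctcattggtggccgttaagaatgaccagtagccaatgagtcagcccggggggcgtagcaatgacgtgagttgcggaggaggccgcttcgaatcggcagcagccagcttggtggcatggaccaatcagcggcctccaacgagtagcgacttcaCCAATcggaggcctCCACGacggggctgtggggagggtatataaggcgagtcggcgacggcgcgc
Hsp90b1 (chr10:86705445-86705694, minus strand): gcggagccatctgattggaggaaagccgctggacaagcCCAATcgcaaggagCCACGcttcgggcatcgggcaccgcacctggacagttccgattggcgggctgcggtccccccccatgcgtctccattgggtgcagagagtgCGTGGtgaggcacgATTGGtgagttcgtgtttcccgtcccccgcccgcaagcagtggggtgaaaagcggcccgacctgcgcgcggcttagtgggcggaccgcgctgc
Asns (chr6:7693210-7693459, minus strand): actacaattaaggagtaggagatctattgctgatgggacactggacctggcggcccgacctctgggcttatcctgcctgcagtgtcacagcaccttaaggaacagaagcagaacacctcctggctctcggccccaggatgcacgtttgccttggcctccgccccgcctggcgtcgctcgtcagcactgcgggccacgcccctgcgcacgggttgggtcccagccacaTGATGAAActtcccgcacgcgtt
Chac1 (chr2:119350992-119351241, plus strand): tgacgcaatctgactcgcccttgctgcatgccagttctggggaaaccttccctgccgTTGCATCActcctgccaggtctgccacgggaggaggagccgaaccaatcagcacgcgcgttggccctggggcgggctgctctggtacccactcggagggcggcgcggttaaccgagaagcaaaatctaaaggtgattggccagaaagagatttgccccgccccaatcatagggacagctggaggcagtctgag
Herpud1 (chr8:94386179-94386428, plus strand): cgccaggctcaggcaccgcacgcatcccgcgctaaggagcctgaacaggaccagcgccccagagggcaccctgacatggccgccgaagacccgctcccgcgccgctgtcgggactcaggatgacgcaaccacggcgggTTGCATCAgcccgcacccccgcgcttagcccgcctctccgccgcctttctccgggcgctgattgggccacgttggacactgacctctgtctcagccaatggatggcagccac
Trib3 (chr2:152344028-152344057, minus strand): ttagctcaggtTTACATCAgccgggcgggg

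Because RGLS4326 acts on miR-17, the 3′UTR of each gene (GENCODE M21, the longest annotated one) was searched for matches to the miR-17 seed, bases 2 to 8 of the mature microRNA, shown in capitals.
mmu-miR-17-5p (chr14:115043684-115043706, plus strand): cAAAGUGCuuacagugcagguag
*Sesn2* was the member with a match, a 7-base site at base 1265 of its 1684-base 3′UTR, with the site in capitals.
Sesn2 site (chr4:132492445-132492451, minus strand): accaccgacaaGCACTTTgcagagcaaac
The other 9 members had none in their longest 3′UTR, whereas 3011 of 14193 tested genes with a 3′UTR (21.2%) had a 7-base or 8-base match. With every annotated 3′UTR searched, *Xbp1* had a match too.

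Each library held 17603122 to 54981992 reads in genes, with medians of 43050261.5 in UNT, 33573702 in PBS and 25551168 in RGLS4326. Levels are given in CPM, counts per 1000000 reads in genes after TMM scaling for library composition, and differences as log2 fold changes with their standard error (SE). Tests are edgeR's two-sided quasi-likelihood test with Benjamini-Hochberg adjustment over all 15644 genes, with calls made below an adjusted p of 0.05. *Pkd2* itself was at 274 ± 34.4 CPM (SD, n = 12) in UNT, 160 ± 32.2 CPM (n = 11) in PBS and 210 ± 23.8 CPM (n = 11) in RGLS4326, with overlap between RGLS4326 and UNT. *Pdk2*, the gene named by the spelling in the labels, was at 266 ± 39.9, 118 ± 20.9 and 116 ± 26.1 CPM, so these levels alone do not tell which gene the label means, and the study describes a knockout of *Pkd2*. Levels of cell type markers differed widely between groups. The summed level of 10 proximal tubule markers was 28644 to 41400 CPM in UNT, 1676 to 6969 CPM in PBS and 3800 to 7251 CPM in RGLS4326, and no marker on any list was at 0 in all libraries. In whole kidney, fewer cells of a type and less RNA per cell cannot be told apart. Reads that fell in no gene were 9.84% to 11.3% of the reads in UNT, 5.175% to 8.995% in PBS and 4.94% to 12.0% in RGLS4326. UNT and PBS did not overlap in this share, so in PBS vs UNT a fit with it as a covariate cannot separate it from group. The names of the deposited tables restart their numbering and so give 3 sets of libraries, each with 3 or 4 mice of every group, and what a set stands for is not stated.

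Per kilobase of exon, which allows genes to be compared, the ER chaperone genes and *Herpud1* were the most abundant members and *Asns*, *Trib3* and *Chac1* the least. In UNT the levels were 275 CPM per kb for *Herpud1*, 221 for *Hspa5* and 213 for *Hsp90b1*, then 58.8 for *Atf4*, 49.7 for *Xbp1*, 15.0 for *Sesn2*, 9.45 for *Ddit3*, 1.64 for *Asns*, 0.860 for *Trib3* and 0.621 for *Chac1*. In PBS the means were 234 CPM per kb for *Hspa5*, 196 for *Hsp90b1*, 107 for *Herpud1*, 80.8 for *Xbp1*, 72.1 for *Atf4*, 13.4 for *Sesn2*, 9.18 for *Ddit3*, 7.99 for *Asns*, 2.18 for *Trib3* and 1.48 for *Chac1*. Neighbours in this order that lay closer than the larger of their SDs between mice were, in UNT, *Herpud1* and *Hspa5*, *Hspa5* and *Hsp90b1*, and *Atf4* and *Xbp1*. In PBS they were *Hspa5* and *Hsp90b1*, *Herpud1* and *Xbp1*, *Xbp1* and *Atf4*, and *Ddit3* and *Asns*. *Chac1* rested on 16 to 150 counts per library and *Trib3* on 29 to 267, the fewest of the 10.

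**Figure D1:**
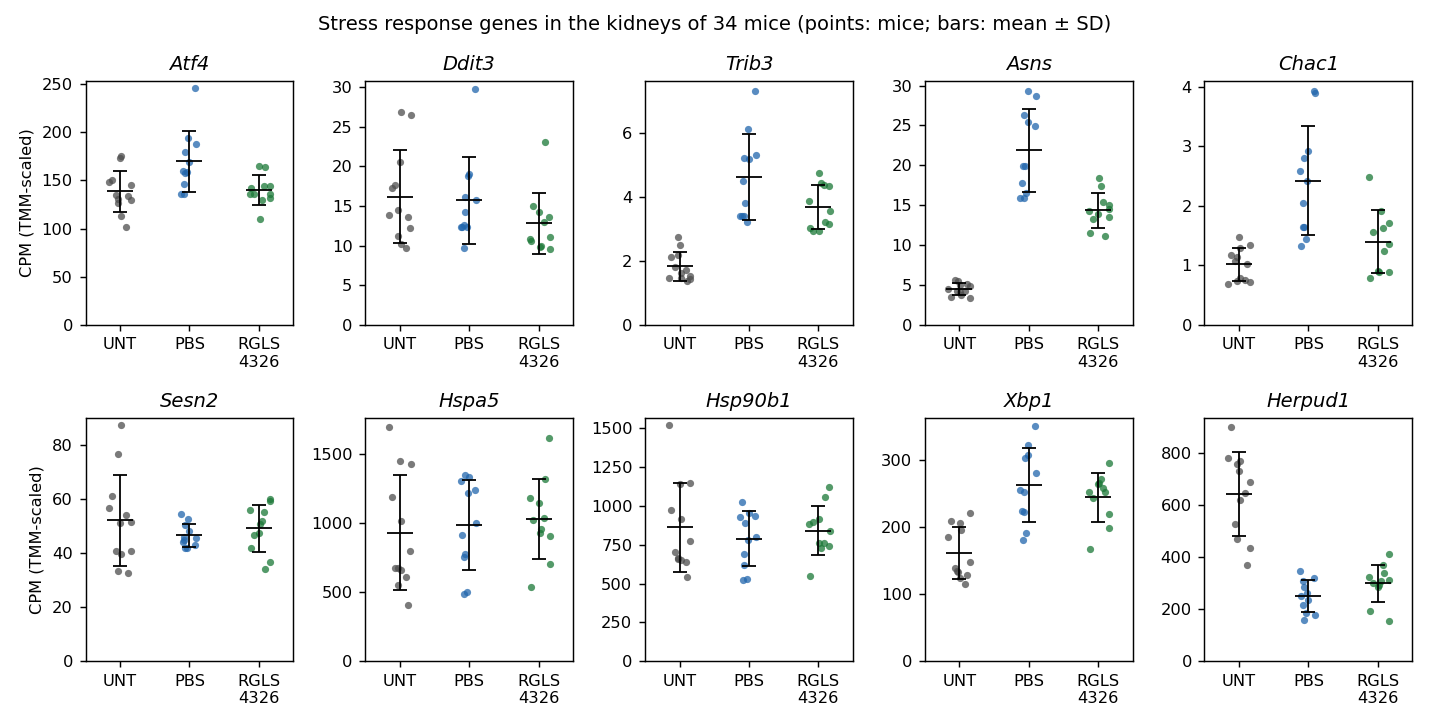
Level of each of the 10 genes in every mouse, in TMM-scaled CPM on linear axes from 0, with points for mice and black bars for the mean ± SD of UNT (n = 12), PBS (n = 11) and RGLS4326 (n = 11). *Asns* and *Trib3* of every PBS mouse lie above those of every UNT mouse, *Herpud1* of every PBS mouse lies below, and *Hspa5* and *Hsp90b1* spread widely within each group.

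To ask which stress response genes differ in cystic kidneys, PBS was first compared with UNT. The ATF4-regulated genes *Asns*, *Trib3* and *Chac1* rose, *Atf4* and *Xbp1* rose less, and *Herpud1* fell. *Ddit3*, *Sesn2*, *Hspa5* and *Hsp90b1* did not pass the test. Thus 5 of 10 members were called higher and 1 lower, where 82.1% of all tested genes were called, 43.1% higher and 39.0% lower. The members' median log2 fold change was 0.19, against 0.04 over all genes tested. It was 0.78 for the ATF4 arm and -0.02 for the ER arm.

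*Asns* encodes asparagine synthetase, which makes asparagine from aspartate. Its lowest, median and highest levels were 3.30, 4.40 and 5.65 CPM in UNT, 15.9, 19.9 and 29.3 CPM in PBS and 11.1, 14.2 and 18.4 CPM in RGLS4326. Every PBS mouse was above every UNT mouse, a separation that 42.5% of all genes showed in this contrast in either direction. The log2 fold change of PBS vs UNT was 2.28 (SE 0.12, edgeR adjusted p = 2.65e-19), a 4.87-fold higher level. Within sets 1, 2 and 3 it was 2.54, 1.85 and 2.43.

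*Trib3* encodes a pseudokinase that is induced by ATF4 and CHOP and damps their activity. It stood at 1.38, 1.67 and 2.75 CPM (lowest, median, highest) in UNT, 3.21, 4.51 and 7.33 CPM in PBS and 2.93, 3.57 and 4.76 CPM in RGLS4326. Its PBS and UNT values did not overlap either, and the gain was 1.33 on the log2 scale (SE 0.14, edgeR adjusted p = 1.47e-10). The values were 1.30, 0.96 and 1.70 within the sets.

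*Chac1* encodes an enzyme that breaks down glutathione. Its levels were 0.681, 1.04 and 1.48 CPM in UNT, 1.33, 2.42 and 3.94 CPM in PBS and 0.783, 1.35 and 2.49 CPM in RGLS4326. PBS and UNT overlapped at their edges, although 11 of 11 PBS mice were above the UNT mean. It rose by 1.26 on the log2 scale (SE 0.20, edgeR adjusted p = 5.81e-07), and 1.20, 0.94 and 1.61 within the sets.

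*Atf4* itself changed far less than these genes. Its levels were 102, 134 and 176 CPM in UNT, 136, 160 and 246 CPM in PBS and 110, 136 and 165 CPM in RGLS4326, and the groups overlapped. PBS was 1.23-fold above UNT (log2 fold change 0.29, SE 0.09, edgeR adjusted p = 0.00295), with 9 of 11 PBS mice above the UNT mean. The values within sets were 0.19, 0.27 and 0.37, with edgeR adjusted p of 0.174, 0.0177 and 0.125. Adding reads in no gene to the fit left PBS 0.28 above UNT on the log2 scale, at an edgeR adjusted p of 0.0674.

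*Ddit3* encodes CHOP, the transcription factor tied to cell death under lasting ER stress. It stood at 9.65, 14.1 and 26.9 CPM in UNT, 9.68, 14.3 and 29.7 CPM in PBS and 9.57, 11.1 and 23.1 CPM in RGLS4326, so the groups covered nearly the same range. The log2 fold change of PBS vs UNT was -0.04 (95% interval -0.41 to 0.32, edgeR adjusted p = 0.831). In GENCODE M21 its exons overlap those of *Mars* by 68 bases and of *Gm4189* by 13 bases, both on the opposite strand, and another gene model carries the same symbol, so its counts are uncertain because the strand setting of the counting is not stated.

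*Sesn2* encodes sestrin 2, a leucine sensor that restrains mTORC1. Its levels were 32.6, 51.2 and 87.2 CPM in UNT, 41.9, 45.6 and 54.3 CPM in PBS and 33.97, 50.9 and 60.1 CPM in RGLS4326. The mice of the UNT group spread 2.67-fold and those of the PBS group 1.30-fold. No difference was called, with a log2 fold change of -0.16 (95% interval -0.41 to 0.10, edgeR adjusted p = 0.242).

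In the ER arm, *Hspa5* encodes BiP, the main chaperone of the ER lumen and the partner that holds its stress sensors inactive. It was at 408, 739 and 1701 CPM in UNT, 491, 1002 and 1351 CPM in PBS and 541, 1025 and 1616 CPM in RGLS4326. UNT mice alone differed 4.17-fold. The log2 fold change of PBS vs UNT was 0.09 (95% interval -0.34 to 0.52, edgeR adjusted p = 0.708). Within sets 1, 2 and 3 it was -0.26, 0.73 and -0.06, and it was called in set 2 (adjusted p = 0.0373).

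*Hsp90b1* encodes GRP94, the HSP90 of the ER. Its levels were 543, 739 and 1516 CPM in UNT, 521, 796 and 1025 CPM in PBS and 548, 836 and 1122 CPM in RGLS4326, and the groups overlapped throughout. PBS vs UNT gave a log2 fold change of -0.13 (95% interval -0.43 to 0.17, edgeR adjusted p = 0.427). In GENCODE M21 its exons overlap those of *1810014B01Rik* on the opposite strand by 415 bases, and on the same strand those of *Gm15344* by 84 bases and *Gm25745* by 133 bases, which makes its counts uncertain.

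*Xbp1*, the transcription factor downstream of IRE1, is needed by secretory cells. It stood at 115, 143 and 221 CPM in UNT, 181, 255 and 350 CPM in PBS and 167, 252 and 295 CPM in RGLS4326. All 11 PBS mice were above the UNT mean, although the groups overlapped, and the gain on the log2 scale was 0.70 (SE 0.12, edgeR adjusted p = 2.06e-06). Within sets it was 0.42, 0.86 and 0.81, and with reads in no gene entered as a covariate it was 0.39 (adjusted p = 0.0371). The 6 plasma cell markers found in the tables, genes of a cell type that relies on XBP1, summed to 27.3 to 36.8 CPM in UNT, 116 to 229 CPM in PBS and 81.4 to 164 CPM in RGLS4326, though of the 5 tested ones 2 were called higher and 1 lower in PBS vs UNT (median log2 fold change 0.40), and 1 higher and 2 lower in RGLS4326 vs PBS. The part of these cells in the *Xbp1* level was not tested.

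*Herpud1* encodes an ER membrane protein of the degradation machinery and is induced by ER stress in many cells. It went the other way, with 369, 667 and 898 CPM in UNT, 158, 252 and 347 CPM in PBS and 156, 307 and 410 CPM in RGLS4326. Every PBS mouse was below every UNT mouse. PBS was 2.57-fold lower than UNT (log2 fold change -1.36, SE 0.15, edgeR adjusted p = 4.47e-10), and the values within sets were -1.77, -1.05 and -1.39. Proximal tubule markers fell in parallel, 10 of 10 of them, with a median log2 fold change of -2.70, and their part in the *Herpud1* level was not tested.

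**Figure D2:**
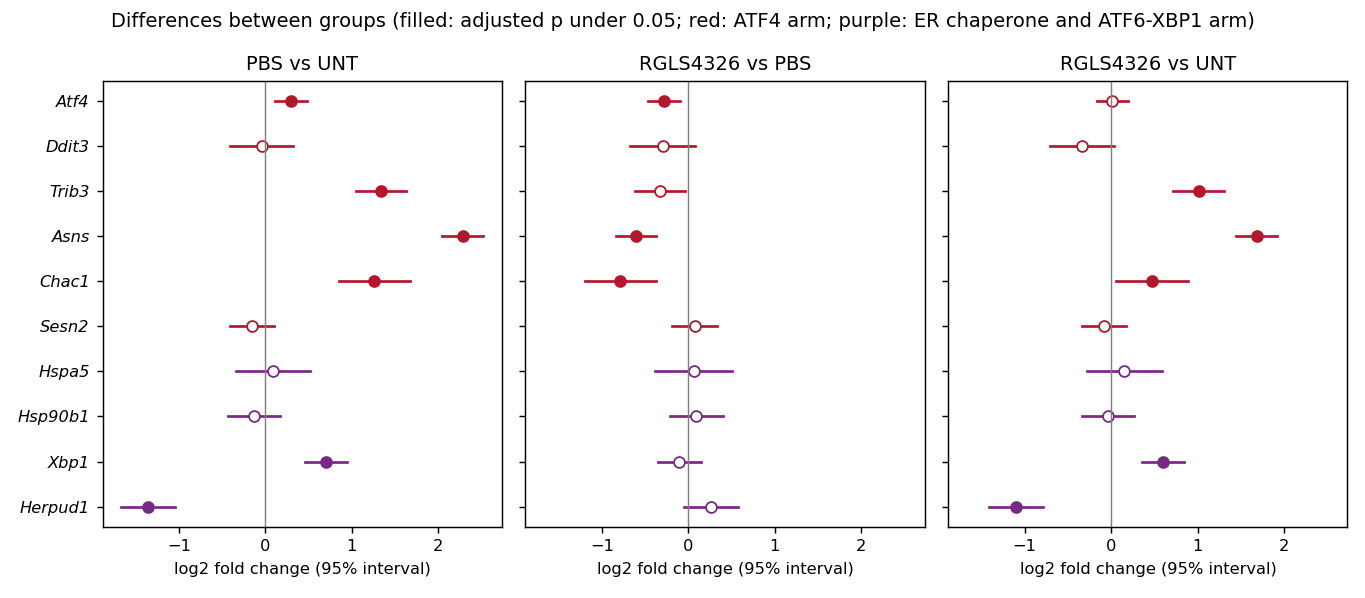
Log2 fold change of each gene in PBS vs UNT, RGLS4326 vs PBS and RGLS4326 vs UNT, with 95% intervals as lines and filled points where the edgeR adjusted p was under 0.05. Red marks the ATF4 arm and purple the ER arm. In RGLS4326 vs PBS the 3 filled points, *Atf4*, *Asns* and *Chac1*, all lie to the left of 0.

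Whether RGLS4326 changed these genes was asked next, against the PBS group. *Asns*, *Chac1* and *Atf4* fell, and none of the 4 ER arm genes was called in either direction. With 0 members called higher, 3 called lower and 7 not called, the members stood beside 33.8% of all tested genes called, 15.3% higher and 18.5% lower. The members' median log2 fold change was -0.19, with -0.31 for the ATF4 arm and 0.08 for the ER arm, against 0.00 over all genes tested. No member's RGLS4326 and PBS values were free of overlap, which 0.0639% of all genes achieved. Both comparisons use the same 11 PBS mice, so the fall here and the rise described above are not independent.

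*Asns* fell by 0.60 on the log2 scale (SE 0.11, edgeR adjusted p = 0.00119), and 11 of 11 RGLS4326 mice were below the PBS mean. Within sets 1, 2 and 3 the difference was -0.68, -0.52 and -0.66, with adjusted p of 0.0779, 0.0401 and 0.262. *Chac1* fell by 0.79 (SE 0.20, edgeR adjusted p = 0.00623), with 10 of 11 mice below the PBS mean and differences of -0.96, -0.87 and -0.68 within sets. For *Atf4* the fall was 0.28 (SE 0.09, edgeR adjusted p = 0.0191), again with 11 of 11 mice below the PBS mean, and -0.39, -0.22 and -0.23 within sets. This call rested on PBS replicate 9, which had the highest *Atf4* of all mice, since without it the log2 fold change was -0.20 and the adjusted p 0.0681.

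*Trib3* had a log2 fold change of -0.33 (95% interval -0.62 to -0.03, edgeR adjusted p = 0.0730) and was not called with all mice in the fit. It was called, with adjusted p of 0.0441 to 0.0464, without RGLS4326 replicate 4 or PBS replicate 5, 6 or 7. *Ddit3* had a log2 fold change of -0.30 (95% interval -0.68 to 0.08, adjusted p = 0.201) and *Sesn2* of 0.07 (95% interval -0.19 to 0.34, adjusted p = 0.665), the latter with the miR-17 site shown above. Among the ER arm genes, *Hspa5* had 0.06 (95% interval -0.38 to 0.50, adjusted p = 0.839), *Hsp90b1* 0.09 (95% interval -0.21 to 0.40, adjusted p = 0.644) and *Xbp1* -0.10 (95% interval -0.35 to 0.14, adjusted p = 0.511). *Herpud1* had 0.26 (95% interval -0.05 to 0.58, adjusted p = 0.172), and its sign differed between sets, with 0.75, -0.25 and 0.22.

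The share of reads in no gene overlapped between RGLS4326 and PBS but reached higher in RGLS4326. With this share as a covariate, edgeR called 0 members in RGLS4326 vs PBS (4 at an unadjusted p under 0.05) and 89 genes in all, and the log2 fold changes were -0.45 for *Asns*, -0.68 for *Chac1* and -0.27 for *Atf4*. Within set 1, set 2 and set 3 alone, 0, 1 and 0 members were called (5, 3 and 1 at an unadjusted p under 0.05), where 54, 4065 and 0 genes were called in all (3421, 6361 and 2826 unadjusted). Collecting duct markers, whose summed level was 610 to 956 CPM in UNT, 885 to 2315 CPM in PBS and 481 to 2025 CPM in RGLS4326, had 5 of 6 called higher and 1 lower in PBS vs UNT, and 0 higher and 3 lower in RGLS4326 vs PBS. Of 8 leukocyte markers 7 were called higher and 0 lower in PBS vs UNT, and 0 higher and 3 lower in RGLS4326 vs PBS. Proximal tubule markers had 0 of 10 called higher and 10 lower in PBS vs UNT, and 6 higher and 0 lower in RGLS4326 vs PBS (median log2 fold change 0.62). Markers of the thick ascending limb and distal tubule had 1 of 5 called higher and 4 lower in PBS vs UNT, and 4 higher and 1 lower in RGLS4326 vs PBS (median 0.32). Markers of dividing cells had 6 of 6 called higher in PBS vs UNT (median 0.80), and 1 higher and 0 lower in RGLS4326 vs PBS (median 0.28). Over all tested genes the shares are those given above, 43.1% and 39.0%, then 15.3% and 18.5%. The part of these cell types in the result was not tested.

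Treated kidneys were then set against UNT. Of the members, 4 were called higher and 1 lower, beside 77.7% of all tested genes, 40.8% higher and 36.9% lower. *Asns* was still 3.20-fold above UNT (log2 fold change 1.68, SE 0.12, edgeR adjusted p = 1.57e-15) and *Trib3* 2.01-fold (1.01, SE 0.14, adjusted p = 1.01e-07). In both, every RGLS4326 mouse was above every UNT mouse, a separation found in 36.7% of all genes in either direction. *Xbp1* was higher by 0.60 on the log2 scale (SE 0.12, edgeR adjusted p = 3.01e-05) and *Herpud1* lower, at -1.10 (SE 0.15, adjusted p = 5.07e-08), with overlapping values. *Atf4* differed from UNT by 0.01 (95% interval -0.17 to 0.19, edgeR adjusted p = 0.901). *Chac1* was called at 0.47 (SE 0.21, edgeR adjusted p = 0.0370), with 7 of 11 mice above the UNT mean. The *Chac1* call was lost without any one of RGLS4326 replicates 1, 3, 5, 9 and 10 and UNT replicates 4, 8, 9, 10 and 11. In those fits its log2 fold change was 0.36 to 0.46 and its edgeR adjusted p up to 0.107. *Ddit3* was not called at -0.34 (95% interval -0.71 to 0.03, edgeR adjusted p = 0.0845), but was called without RGLS4326 replicate 11 or UNT replicate 11 (-0.46 and -0.39) and in set 1 alone. Its values in sets 1, 2 and 3 were -0.76, -0.25 and -0.07 (edgeR adjusted p = 0.00564, 0.288 and 0.890). *Trib3* was at 1.14, 0.57 and 1.21 in the sets and was not called in set 2 (edgeR adjusted p = 0.0818), and *Chac1*, at 0.23, 0.07 and 0.93, was called in set 3 alone (edgeR adjusted p = 0.0444). *Asns*, *Xbp1* and *Herpud1* were called in all 3 sets. No difference from UNT was called for *Sesn2* (-0.08), *Hspa5* (0.15) or *Hsp90b1* (-0.03), with adjusted p from 0.527 to 0.839.

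Whether members vary together from mouse to mouse was examined over all 34 mice, after each group's mean was subtracted from log2(CPM + 1). All 45 pairs were tested by two-sided permutation within groups with 100000 resamples and adjusted together. Of these, 42 had a positive r, 18 were called positive and 0 negative at an adjusted p under 0.05 (no negative pair at an unadjusted p under 0.05 other than *Ddit3* with *Sesn2*, at r = -0.40 and adjusted p = 0.0694). How often pairs of other genes pass this test was not computed, so these counts cannot be called particular to the members. Within the ER arm 6 of 6 pairs were called, within the ATF4 arm 4 of 15, and across the arms 8 of 24. *Hspa5* and *Hsp90b1* had Pearson's r = 0.94 and Spearman's rho = 0.93 (n = 34, permutation p = 1e-05 for both, the smallest these resamples can give, adjusted p = 0.000112), and r = 0.93 without the 2 mice farthest from the median of *Hspa5*. *Hspa5* and *Xbp1* had r = 0.88 and rho = 0.89 (permutation p = 1e-05, adjusted p = 0.000112), with r = 0.91 without 2 mice. *Hspa5* and *Herpud1* had r = 0.66 and rho = 0.61 (permutation p = 5e-05 and 0.00051, adjusted p = 0.000375 and 0.00265), with r = 0.60 without 2 mice. Thus *Herpud1* varied with the chaperones between mice of a group, while *Herpud1* fell in PBS vs UNT and *Hspa5* was not called.

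In the ATF4 arm, *Atf4* and *Ddit3* had r = 0.80 and rho = 0.77 (n = 34, permutation p = 1e-05, adjusted p = 0.000112), with r = 0.73 without 2 mice. *Trib3* and *Asns* had r = 0.69 and rho = 0.68 (permutation p = 9e-05 and 0.00013, adjusted p = 0.000579 and 0.000975), with r = 0.69 without 2 mice. *Trib3* and *Chac1* had r = 0.56 and rho = 0.50 (permutation p = 0.00226 and 0.00688, adjusted p = 0.00726 and 0.0193), with r = 0.49 without 2 mice. *Asns* and *Chac1* were called as well, with r = 0.49 and rho = 0.49 (permutation p = 0.00919 and 0.00885, adjusted p = 0.0258 and 0.0234), and r = 0.41 without 2 mice. Across the arms, *Ddit3* and *Xbp1* had r = 0.70 and rho = 0.69 (permutation p = 2e-05 and 4e-05, adjusted p = 0.00018 and 0.00036), with r = 0.72 without 2 mice. The other called pairs across the arms were *Ddit3* with *Hspa5* (r = 0.56) and *Hsp90b1* (0.54), *Atf4* with *Xbp1* (0.56), *Hsp90b1* (0.46) and *Hspa5* (0.44), *Sesn2* with *Herpud1* (0.54) and *Chac1* with *Xbp1* (0.45), with adjusted p from 0.00495 to 0.0342. With values centred on group and set, the *Ddit3* pairs were still called across the arms, while the other 5 were not (permutation adjusted p from 0.0503 to 0.152), nor was *Asns* with *Chac1* (0.0873). The 3 genes *Trib3*, *Asns* and *Chac1*, those with the ATF4 element among the ATF4 arm, did not pass the test with *Atf4* mRNA itself, with r of 0.32, 0.20 and 0.35 and adjusted p of 0.167, 0.397 and 0.0977. The values within single groups were far apart. In the PBS group alone (n = 11), *Atf4* had r = 0.88 with *Trib3* (permutation test, adjusted p = 0.00675) and 0.72 with *Asns* (adjusted p = 0.0479), whereas in the RGLS4326 group alone (n = 11) r was -0.66 (permutation test, adjusted p = 0.1096) and -0.74 (adjusted p = 0.0748). In UNT alone (n = 12) r was 0.07 and -0.02. The difference in r between groups was not tested. *Trib3* and *Asns* were correlated within both dosed groups, at 0.84 in PBS and 0.79 in RGLS4326, and had r = 0.26 in UNT.

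**Figure D3:**
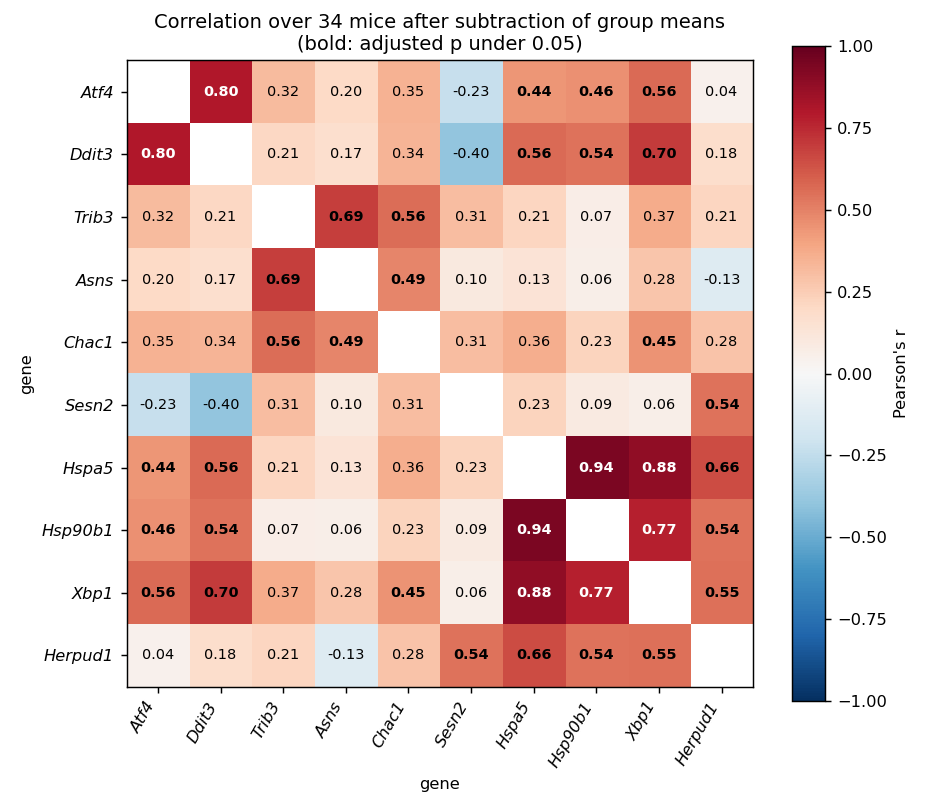
Pearson's r for each pair of genes over 34 mice, computed on log2(CPM + 1) after subtraction of group means, on a colour scale from -1 to 1. Bold numbers had an adjusted p under 0.05, and the block of *Hspa5*, *Hsp90b1*, *Xbp1* and *Herpud1* holds values from 0.54 to 0.94.

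As a description with no test, the genes outside the 10 whose variation between mice was most like that of *Hspa5* were *Pdia4* (r = 0.97), *Manf* (0.95), *Hyou1* (0.95), *Creld2* (0.95) and *Dnajb11* (0.93), all over 34 mice that share their libraries and scaling. All 5 are also on the list of ER chaperones and helpers used below, and none was called in any of the 3 comparisons. For *Atf4* the most alike were *Tmem199* (r = 0.84), *Rassf1* (0.83), *Eif1b* (0.81), *Ngdn* (0.81) and *Eif1* (0.81). These 5 differed in their changes between groups. *Rassf1* was higher in PBS vs UNT (0.63, edgeR adjusted p = 7.69e-10) and was not called in RGLS4326 vs PBS (-0.13, adjusted p = 0.166). *Tmem199*, *Eif1b* and *Ngdn* were not called in PBS vs UNT (-0.14, 0.09 and 0.00) and were lower in RGLS4326 vs PBS (-0.21, -0.25 and -0.17, with edgeR adjusted p of 0.0299, 0.0162 and 0.0450). *Eif1*, a factor for start codon choice, had means of 291 (UNT), 359 (PBS) and 289 CPM (RGLS4326) and was called in PBS vs UNT (0.30, adjusted p = 0.000325) and RGLS4326 vs PBS (-0.31, adjusted p = 0.00455) in the edgeR fit.

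Other genes of the pathway were taken from lists and are given by their calls in the edgeR fit. These counts are to be read beside the shares of all tested genes, 43.1% higher and 39.0% lower in PBS vs UNT (median 0.04), and 15.3% higher and 18.5% lower in RGLS4326 vs PBS (median 0.00). Of the 110 tested genes on 9 lists, which include chaperones outside the ER, edgeR called 34 in RGLS4326 vs PBS and DESeq2 35, but edgeR called 0 with reads in no gene as covariate, in set 1 alone and in set 3 alone (26, 28 and 16 at an unadjusted p under 0.05). In PBS vs UNT that covariate left 3 tRNA synthetases, 5 ER chaperones and 7 degradation genes called, and in set 3 alone 3 synthetases and 7 degradation genes were called. In set 1 alone 4 ER chaperones were called and in set 2 alone 6 degradation genes, against 9 and 11 with all sets. The other list counts of this comparison stayed within 1.5 times in sets 1 and 2. Among 12 tested stress sensors, eIF2alpha kinases and feedback genes, 7 were higher and 2 lower in PBS vs UNT, with a median log2 fold change of 0.32, and 1 was higher and 0 lower in RGLS4326 vs PBS, with a median of 0.05. *Eif2ak2*, the kinase PKR that senses double-stranded RNA, rose by 1.02 (SE 0.07, adjusted p = 4.96e-15), from 33.8 to 68.8 CPM. *Mbtps1*, the site-1 protease that makes the first cut in ATF6, rose by 0.45 (SE 0.05). *Eif2ak4*, the kinase GCN2 that senses uncharged tRNA, fell by 0.38 (SE 0.07, adjusted p = 5.06e-06) and was higher by 0.25 (SE 0.07, adjusted p = 0.00971) after treatment. *Ppp1r15b*, a phosphatase subunit that reverses eIF2alpha phosphorylation, fell by 0.37 (SE 0.05). *Ern2* did not pass the filter on low counts.

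Of 11 other tested transcription factors and outputs linked to ATF4, 8 were higher and 1 lower in PBS vs UNT, with a median log2 fold change of 1.21. In RGLS4326 vs PBS 1 was higher and 4 lower, with a median of -0.29. *Gdf15*, a secreted stress hormone, rose from 3.62 ± 1.07 CPM in UNT to 35.9 ± 12.0 CPM in PBS (log2 fold change 3.30, SE 0.17, adjusted p = 5.30e-19). *Stc2*, a secreted glycoprotein, rose from 6.199 to 21.2 CPM (1.77, SE 0.10). The lipoprotein receptor gene *Vldlr* moved against them, falling by 0.73 (SE 0.08) in PBS vs UNT and rising by 0.38 (SE 0.09, adjusted p = 0.00334) with RGLS4326. *Nupr1*, a stress-induced chromatin protein, averaged 27.4 ± 7.69 CPM in UNT, 63.4 ± 20.0 CPM in PBS mice and 41.1 ± 6.32 CPM in RGLS4326, and fell with treatment by 0.63 (SE 0.15, adjusted p = 0.00453). *Atf5*, a transcription factor close to ATF4, fell with treatment by 0.57 (SE 0.11, adjusted p = 0.00131). *Fgf21* did not pass the filter.

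The 18 genes of amino acid synthesis and uptake were all called in PBS vs UNT, 11 higher and 7 lower, with a median log2 fold change of 0.56. Between RGLS4326 and PBS 0 were higher and 6 lower, with a median of -0.14. *Aldh18a1*, which starts proline synthesis, rose by 2.48 (SE 0.11, adjusted p = 3.03e-21), from 6.82 to 38.1 CPM, and *Slc7a1*, an importer of arginine and lysine, rose by 2.45 (SE 0.09, adjusted p = 3.82e-23), from 20.1 to 109 CPM. *Cbs*, the first enzyme from homocysteine towards cysteine, fell by 1.94 (SE 0.15), and *Shmt2*, a mitochondrial enzyme that interconverts serine and glycine, fell by 1.69 (SE 0.08), from 221 to 68.7 CPM. With treatment *Phgdh*, the first enzyme of serine synthesis, fell by 0.54 (SE 0.12, adjusted p = 0.00300), from 67.8 ± 14.2 to 46.7 ± 12.3 CPM. *Mthfd2*, a mitochondrial folate enzyme, fell by 0.48 (SE 0.10, adjusted p = 0.00154), from 21.4 ± 4.05 to 15.3 ± 1.74 CPM.

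Of 12 cytosolic aminoacyl-tRNA synthetase genes, which load amino acids onto tRNA, 10 were higher and 0 lower in PBS vs UNT, with a median log2 fold change of 0.28. After treatment 0 were higher and 5 lower against PBS, with a median of -0.13, and 0 of the 5 had an absolute log2 fold change above 0.5. *Wars*, for tryptophan, rose by 0.66 (SE 0.08, adjusted p = 5.84e-09) and *Iars*, for isoleucine, by 0.49 (SE 0.07, adjusted p = 8.65e-08). *Sars*, for serine, fell with treatment by 0.29 (SE 0.07, adjusted p = 0.00620), from 141 to 115 CPM. *Aars*, for alanine, fell by 0.27 (SE 0.08, adjusted p = 0.0103), although 1326 bases of its exons are shared with *Exosc6* on the same strand and its counts are uncertain.

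The ER lists moved in both directions. Of 17 ER chaperones, oxidoreductases and co-chaperones, 6 were higher and 3 lower in PBS vs UNT, with a median of 0.15, and 1 higher and 0 lower in RGLS4326 vs PBS, with a median of -0.08. *Txndc5* rose by 0.55 (SE 0.06, adjusted p = 5.51e-10) and *Pdia6* by 0.42 (SE 0.11, adjusted p = 0.000685), both disulfide isomerases. The BiP co-chaperones *Dnajb9* and *Dnajc3* fell by 0.52 (SE 0.11) and 0.49 (SE 0.10). *Dnajb9* rose with treatment by 0.32 (SE 0.11, adjusted p = 0.0260), from 44.98 ± 8.10 to 56.3 ± 8.997 CPM. Of 15 genes of ER-associated degradation and translocation, 4 were higher and 7 lower in PBS vs UNT, with a median of -0.19, and 4 higher and 4 lower in RGLS4326 vs PBS, with a median of 0.01. *Sec61a1*, the channel through which proteins enter the ER, rose by 0.76 (SE 0.06, adjusted p = 8.50e-14), and the mannosidase-like gene *Edem2* rose by 0.43 (SE 0.06, adjusted p = 1.85e-07). *Derl2*, a membrane protein of the degradation channel, fell by 0.25 (SE 0.06, adjusted p = 0.000313). With treatment *Edem3* rose by 0.33 (SE 0.10) and *Derl2* by 0.19 (SE 0.06), while *Edem2* fell by 0.28 (SE 0.07) and *Os9* by 0.26 (SE 0.07), with adjusted p of 0.00387 to 0.0213.

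All 7 tested genes of cell death and survival under ER stress were higher in PBS vs UNT, where 43.1% of all genes were, with a median log2 fold change of 1.54. *Bbc3*, encoding PUMA, rose by 2.09 (SE 0.12, adjusted p = 7.14e-18), from 2.48 to 10.6 CPM, and *Casp12*, an ER-linked caspase, by 1.83 (SE 0.10, adjusted p = 6.30e-18), from 3.76 to 13.5 CPM. Of these, 1 was higher and 2 lower in RGLS4326 vs PBS, with a median of -0.11. *Bax*, a pore-forming protein of mitochondria, fell by 0.42 (SE 0.10, adjusted p = 0.00435), with 192 bases of its exons shared with *Gm45808* on the same strand, and *Bbc3* fell by 0.34 (SE 0.12, adjusted p = 0.0251), while *Casp12* rose by 0.39 (SE 0.10, adjusted p = 0.00675). Leukocyte markers summed to 88.4 to 143 CPM in UNT, 593 to 1805 CPM in PBS and 593 to 1204 CPM in RGLS4326, and fibroblast markers to 628 to 1577, 3502 to 7294 and 4524 to 6647 CPM, and their part in the levels of these lists was not tested. Of the genes named here from the lists, *Atf5*, *Derl2*, *Dnajb9*, *Eif2ak2*, *Pdia6*, *Ppp1r15b*, *Sec61a1*, *Shmt2* and *Txndc5* overlap a gene on the opposite strand, which makes their counts uncertain.

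**Figure D4:**
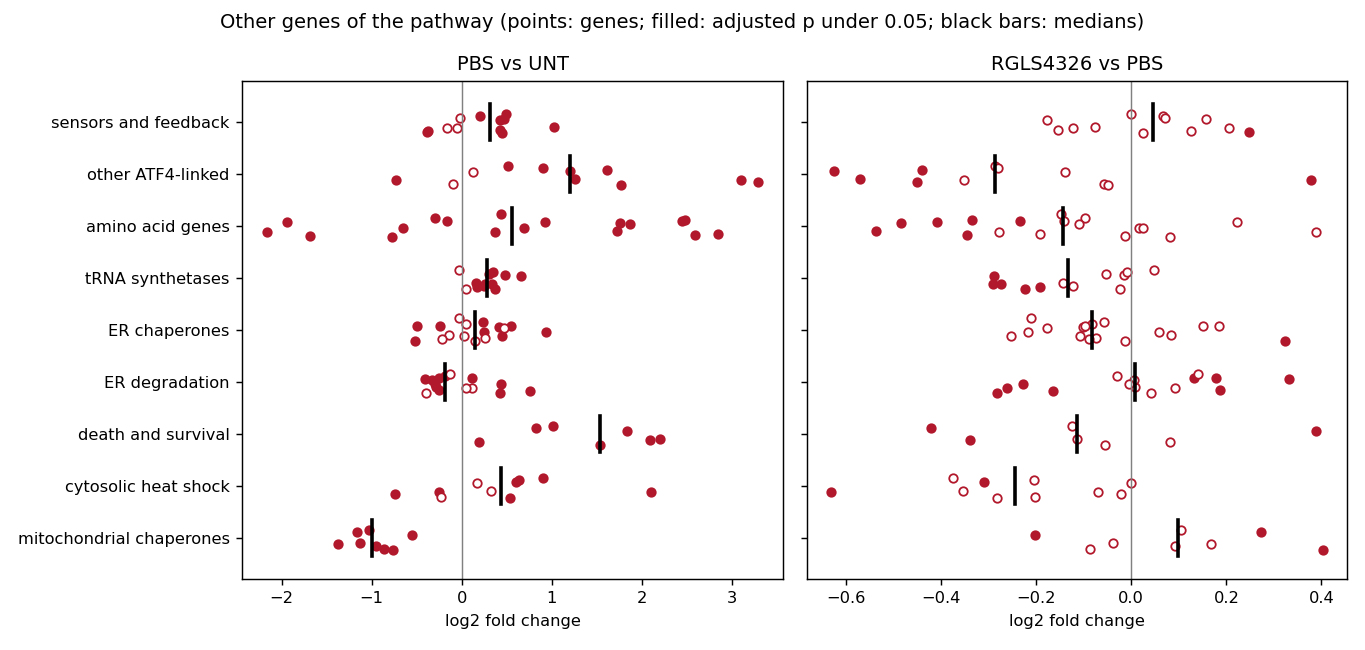
Log2 fold change of each gene of 9 pathway lists in PBS vs UNT and in RGLS4326 vs PBS, with filled points for an edgeR adjusted p under 0.05, black bars for list medians, and axes of different range. The medians for amino acid genes and tRNA synthetases are 0.56 and 0.28 in PBS vs UNT, and -0.14 and -0.13 in RGLS4326 vs PBS.

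Against UNT, where 40.8% of all genes were higher and 36.9% lower, the treated kidneys had 6 of 12 sensor genes higher and 2 lower, 7 of 11 other ATF4-linked genes higher and 1 lower, 10 of 18 amino acid genes higher and 7 lower, and 5 of 12 tRNA synthetases higher and 0 lower. Of the ER lists, 4 of 17 chaperones were higher and 2 lower, and 5 of 15 degradation genes higher and 4 lower, while 7 of 7 death and survival genes were higher. *Gdf15* was still higher by 2.85 (SE 0.17), *Slc7a1* by 2.21 (SE 0.09), *Casp12* by 2.22 (SE 0.11) and *Pmaip1*, encoding the BH3 protein NOXA, by 2.09 (SE 0.13) on the log2 scale.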

How the data were processed

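Kidney mRNA of 34 mice was measured by RNA-seq, in groups given by the labels. The authors deposited untransformed read counts by gene symbol in a table for each mouse, neither normalized nor pooled. Per the submitters' processing notes, FastQC 0.11.2, Trim Galore, STAR, SAMtools 1.1, Picard 1.119 and HTSeq 0.6.1 were used on GRCm38 (mm10). The annotation and strand setting of the counting are not given in the sources used here. Counter totals, such as reads in no gene, stayed out of library sizes.

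Genes were filtered with filterByExpr by group, which kept 15644 of 23509 (66.5%). Counts were scaled by TMM and tested with edgeR 4.0.16 (R 4.3.3), glmQLFit and glmQLFTest, in 1 fit over 34 libraries with 3 groups and no covariate. SE was the log2 fold change divided by the square root of F, and 95% intervals used 31 residual degrees of freedom. The script was tested on simulated data. Correlations used a pseudocount of 1. Python 3.11.15, numpy 2.4.6, pandas 2.3.3, scipy 1.17.1 and matplotlib 3.10.9 were used. Each mouse is treated as a replicate.

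All 10 members were named in every comparison. From each other list, up to 2 called genes per direction with the smallest p were named, and for likeness the 5 genes with the highest r. A gene that this rule names is not reported here. Adgre1 and Jchain were read under older symbols. Members and lists were chosen with earlier results of these data known. The alternatives were other scalings (RLE, upper quartile), DESeq2 1.42.0, no filter, covariates, sets of libraries alone, only 2 groups in the fit, an absolute log2 fold change above 0.5, and leaving out each library. The control oligonucleotide group of the study was not analysed here.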

Additional observations from a re-analysis of the deposited data

How the results depend on the processing

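The number of members called was 6 in PBS vs UNT, 3 in RGLS4326 vs PBS and 5 in RGLS4326 vs UNT. It stayed within 1.5 times of these under RLE and upper-quartile factors, DESeq2, no filter, set as covariate, only 2 groups in the fit and a fold change threshold, and without each library in turn it was 6, 2 to 4 and 4 to 6. In RGLS4326 vs PBS it moved to 0 with reads in no gene as covariate, 0 in set 1 alone, 1 (*Asns*) in set 2 alone and 0 in set 3 alone, in edgeR (4, 5, 3 and 1 at an unadjusted p under 0.05, where DESeq2 on all libraries called 3). In RGLS4326 vs UNT it moved to 3 in set 2 alone, and in set 1 alone *Ddit3* was called and *Chac1* was not. The sets hold 3 or 4 mice per group, and the other causes were not tested. No log2 fold change past the threshold reversed its sign in an alternative. The 18 called correlations became 6 in UNT alone, 10 in PBS alone and 4 in RGLS4326 alone, with fewer mice, and 13 when centred on group and set, of which 12 were among the 18 and 1, *Chac1* with *Sesn2*, was not. The *Chac1* call in RGLS4326 vs UNT was also lost under RLE factors, no filter, both covariates and in sets 1 and 2. For the 110 tested genes of the 9 other lists, edgeR called 34 in RGLS4326 vs PBS (47 at an unadjusted p under 0.05) and DESeq2 35. With reads in no gene as covariate edgeR called 0 of them (26 unadjusted), in set 1 alone 0 (28), in set 2 alone 36 (49) and in set 3 alone 0 (16), and with the fold change threshold the count of every list in that comparison moved by over 1.5 times, as did 4 of 9 in PBS vs UNT and 5 of 9 in RGLS4326 vs UNT. Set 3 alone moved 2 of 9 in PBS vs UNT and 5 of 9 in RGLS4326 vs UNT, where 52 of the 110 genes were called against 75 with all sets. In PBS vs UNT, 88 of the 110 became 67 with reads in no gene as covariate, which there cannot be separated from group. The counts of 3 of 9 lists moved by over 1.5 times, to 3 tRNA synthetases, 5 ER chaperones and 7 degradation genes.

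Replicate numbers are shared between groups but did not pair the mice: deviations of same-numbered mice correlated above 0.1 in 2 of 11 pairs of UNT and PBS, 3 of 11 of UNT and RGLS4326 and 5 of 11 of PBS and RGLS4326. With a replicate block, 6, 3 and 5 members were called. The fewest counts of a member in a library were 16, for *Chac1*.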

Other observations

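Chaperones outside the ER, which the report does not describe, went in separate directions. Of 10 cytosolic heat shock genes, 5 were higher and 2 lower in PBS vs UNT, with a median log2 fold change of 0.43, where 43.1% of all tested genes were higher and 39.0% lower. In RGLS4326 vs PBS 0 were higher and 2 lower, with a median of -0.24, where 15.3% of all genes were higher and 18.5% lower. *Hspb1*, a small heat shock protein that protects the actin skeleton, averaged 22.6 ± 4.81 CPM in UNT, 97.2 ± 29.6 CPM in PBS mice and 62.7 ± 12.8 CPM in RGLS4326. It rose by 2.11 (SE 0.15, edgeR adjusted p = 1.93e-15) in PBS vs UNT and fell by 0.63 (SE 0.15, adjusted p = 0.00360) with RGLS4326. *Hsp90ab1*, a cytosolic HSP90, rose by 0.64 (SE 0.08) in PBS vs UNT, whereas *Hsph1*, a nucleotide exchange factor for HSP70, fell by 0.74 (SE 0.16) and *Hsf1*, the transcription factor of the heat shock response, by 0.25 (SE 0.07). *Bag3*, an HSP70 co-chaperone, fell with treatment by 0.31 (SE 0.09, edgeR adjusted p = 0.0118).

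All 8 mitochondrial chaperone and protease genes were lower in PBS vs UNT, with a median of -0.99, and 8 were lower in RGLS4326 vs UNT, where 39.0% and 36.9% of all tested genes were lower. *Trap1*, the mitochondrial HSP90, fell from 241 ± 13.8 to 125 ± 11.2 CPM (log2 fold change -0.95, SE 0.05), with 54 bases of its exons overlapping *Dnase1* on the opposite strand, and *Lonp1*, a matrix protease, from 180 ± 12.3 to 98.8 ± 5.64 CPM (-0.87, SE 0.05). In RGLS4326 vs PBS 2 were higher and 1 lower. *Yme1l1*, an inner membrane protease, rose by 0.40 (SE 0.09, edgeR adjusted p = 0.00323) and *Clpx*, the unfoldase of the matrix protease ClpXP, by 0.27 (SE 0.10, adjusted p = 0.0294), while *Clpp*, its peptidase, fell by 0.20 (SE 0.08, adjusted p = 0.0408). Markers of the proximal tubule, whose cells are rich in mitochondria, fell in PBS vs UNT in the same libraries, and their part in these levels was not tested.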
